A study of Mus musculus with 6 samples.

Results

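HSF1 peaks crowded into a 3 Mb window of mouse chromosome 13, from 21 to under 24 Mb on build mm9, which was proposed as the large cluster of histone and tRNA genes. Its members are the 241 peaks, of 8886 in 4 deposited peak lists, that start there. The window was chosen by the positions of the peaks in these same lists, so the crowding itself is a description and was not tested. The lists come from chromatin immunoprecipitation and sequencing of HSF1 in a pair of striatal lines from mouse. Cells named STHdhQ7/Q7 (Q7 below) derive from wild-type HdhQ7/Q7 embryos, and STHdhQ111/Q111 cells (Q111) from HdhQ111/Q111 knock-in embryos, whose huntingtin carries an expanded polyglutamine tract. Both lines were grown at 33 °C in medium with G418, and a library was made from each line before and after a 6-hour heat shock at 42 °C. Each genotype is a single cell line and each group a single library, so genotype and line cannot be told apart, and no comparison below has a replicate check or a p-value. The 2 control IgG libraries, 1 per line, were not analysed here. The lists hold peaks and no expression values, so the striatal label could not be checked against marker genes.

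HSF1 switches on chaperone genes when proteins misfold in heated cells. On heating it assembles into trimers that bind heat shock elements, which are runs of GAA units in alternating orientation. Replication-dependent histone genes, which supply the histones of newly copied chromatin, lie in dense clusters in the genome, often as divergent pairs that share a promoter. The tRNA genes are short and are transcribed by RNA polymerase III.

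The label could be set only against the order of gene names, because the available gene table uses GRCm38 and mm9 coordinates were not moved to it. No peak was assigned to a gene. In GRCm38 the chromosome 13 run of histone genes holds 255 genes from H2bc13 to H2ac1, of which 56 are histone genes and 77 are tRNA genes. A first stretch from H2bc13 to H4bc24 holds 19 histone genes, and 31 tRNA genes lie between it and a second stretch of 5 histone genes, from H2ac12 to H2bc11. The next 147 genes hold no histone gene but 46 tRNA genes and all 75 vomeronasal receptor (Vmn1r) genes and pseudogenes of the run. A further stretch from H4c8 to H1f1 holds 30 histone genes, and after 8 other genes the pair H2bc1 and H2ac1 closes the run. The 87 genes from the first to the last Vmn1r entry hold 0 tRNA genes.

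The sequence under the peaks could not be read without the mm9 genome. RefSeq promoters (GRCm38.p6) of the histone genes of the run are shown only as context for paired GAA units near these genes. They were not matched to any peak. The 250 bases before the transcription start were searched for 2 arrangements of a pair of facing units, GAANNTTC and TTCNNGAA. Each reads the same on both strands, and the 2 can overlap. Of 52 histone promoters, 9 (17.3%, 95% Wilson interval 9.38 to 29.7) held GAANNTTC, against 6.69% of all 32851 promoters of the table. TTCNNGAA was in 2 (3.85%), against 7.17% of all promoters. At least 1 of the 2 arrangements was in 9 (17.3%, 9.38 to 29.7), against 12.8% of all promoters, a share that the interval holds. The 9 promoters hold only 6 different sites, since divergent pairs such as H2ac11 and H2bc11 share one, so the promoters are not independent. Both TTCNNGAA matches overlap a GAANNTTC match and give 3 alternating units, in H2ac7 and H2ac6. Such a run of 3 was found in 153 of all promoters (0.466%). The 6 different sites follow, and a site shared by a divergent pair is printed only once. Each is written 5′ to 3′ on the strand of its gene, with GAANNTTC in capitals.
H2bc11 (plus strand, motif from 184 to 177 bases before the start): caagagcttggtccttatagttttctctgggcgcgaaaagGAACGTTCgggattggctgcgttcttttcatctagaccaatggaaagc
H2bc8 (plus strand, motif from 26 to 19 bases before the start): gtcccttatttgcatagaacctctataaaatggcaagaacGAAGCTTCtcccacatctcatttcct
H2ac7 (plus strand, motif from 172 to 165 bases before the start): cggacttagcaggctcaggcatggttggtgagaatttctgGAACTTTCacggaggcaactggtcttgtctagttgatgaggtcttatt
H2ac6 (minus strand, motif starting 122 bases before the start): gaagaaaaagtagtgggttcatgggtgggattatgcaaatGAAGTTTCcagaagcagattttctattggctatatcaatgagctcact
H3c2 (plus strand, motif from 65 to 58 bases before the start): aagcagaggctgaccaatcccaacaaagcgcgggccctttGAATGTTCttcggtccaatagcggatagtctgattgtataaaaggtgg
H4c4 (plus strand, motif from 177 to 170 bases before the start): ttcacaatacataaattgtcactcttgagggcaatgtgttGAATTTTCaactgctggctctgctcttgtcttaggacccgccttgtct
A match describes these letters only and does not show that HSF1 was bound there.

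At 33 °C the window held 35 of 260 peaks in Q7 (13.5%) and 51 of 292 in Q111 (17.5%). After heating it held 78 of 6173 peaks in Q7 (1.26%) and 77 of 2161 in Q111 (3.56%). The window's number of peaks was thus nearly the same in both heated lists, although the Q7 list was much longer. The first peak began at chr13:21252371 and the last ended at chr13:23832153. At 42 °C the nearest Q7 peaks beyond the edges lay at chr13:18959836-18960431 (score 2919, the 98.5th percentile of the list) and chr13:24878051-24878413 (score 104, the 14.0th). The outermost Q7 peaks inside, at chr13:21252371-21252965 and chr13:23831778-23832039, scored 524 (81.1st percentile) and 219 (58.0th). The score is the value that the authors' peak caller gave each peak, taken as -10 times the base-10 logarithm of its p-value. It is read here as a percentile within its own list, with 0 lowest and 100 highest. The Q111 peaks nearest the edges at 42 °C lay at chr13:20226205-20226552 (37.9th percentile) and chr13:25403956-25404411 (73.8th). At 33 °C neither list held a chromosome 13 peak before the window.

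Overlapping peaks of the 4 lists merged into 79 regions with a median width of 567 bases (range 228 to 1517). Together they covered 49.97 kb of the 2.58 Mb between the first and the last. Of the 78 gaps between neighbouring regions, 14 were under 1 kb, 39 between 1 and 10 kb, 21 between 10 and 100 kb, and 4 above 100 kb, with a median of 4.33 kb. Cutting at gaps above 100 kb gave 5 sub-clusters, and 76 of the 79 regions (96.2%) fell in the 3 large ones.

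**Figure D1:**
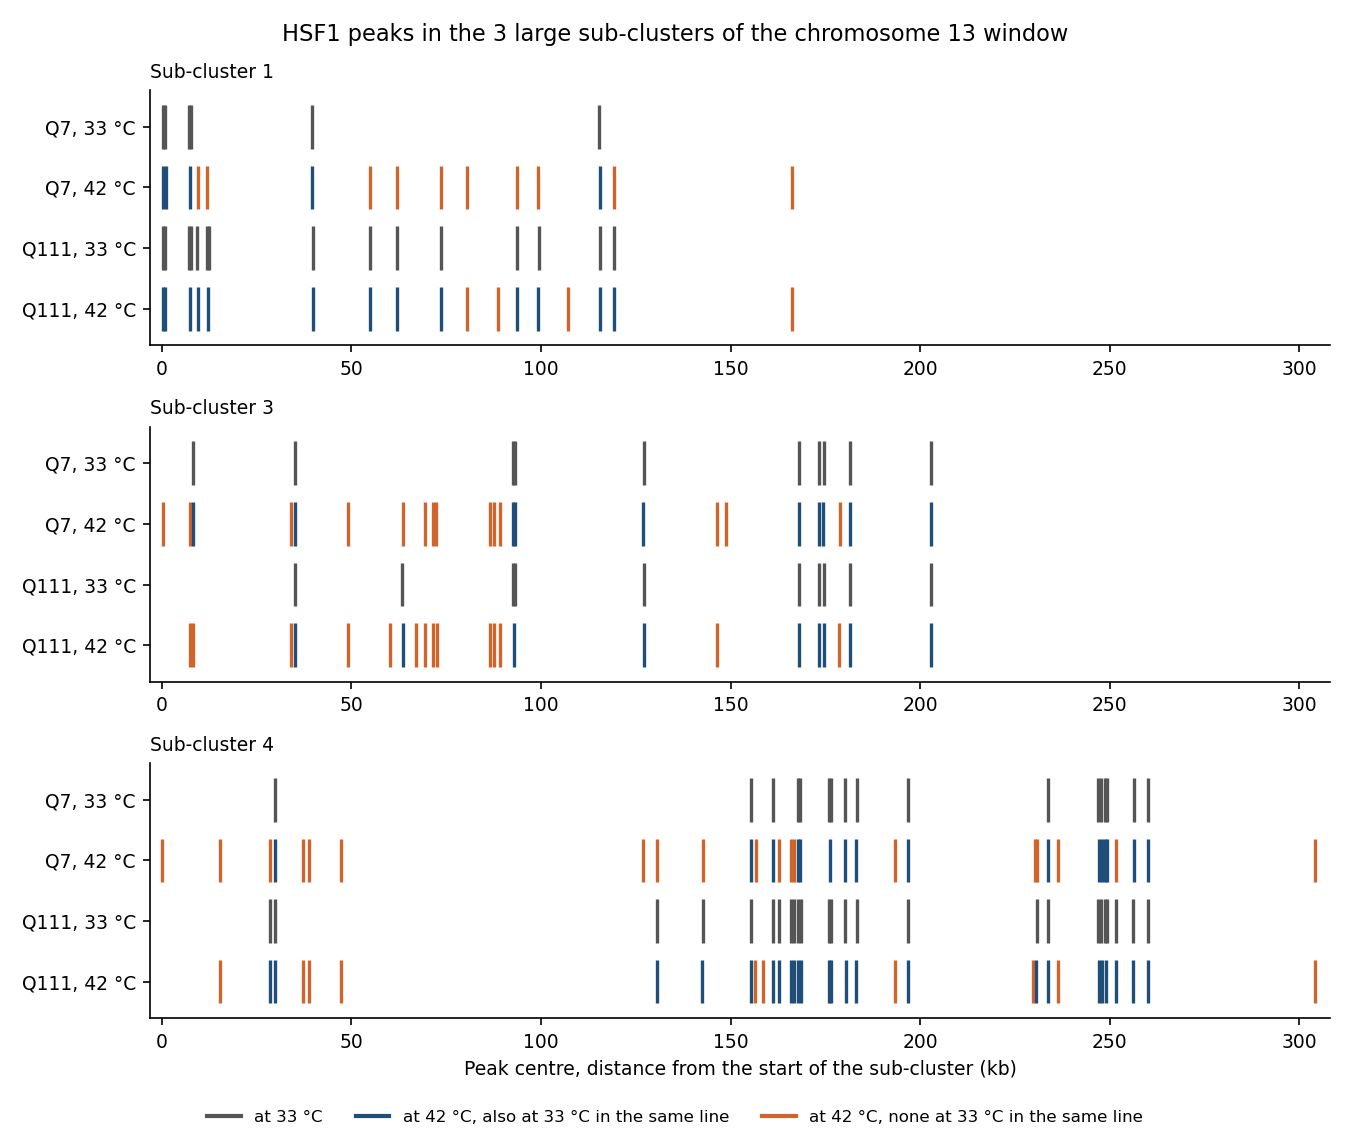
Centres of the peaks of sub-clusters 1, 3 and 4 in each of the 4 lists, as distance in kb from the start of the sub-cluster (x axis), 1 tick per peak; grey ticks are 33 °C peaks, blue ticks 42 °C peaks with a counterpart at 33 °C in the same line, and orange ticks 42 °C peaks without one. Sub-cluster 1 shows 10 orange ticks in Q7 and 4 in Q111, and sub-cluster 3 shows 14 in each.

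Sub-cluster 1 (chr13:21252371-21418877, 167 kb) held 17 regions. Its peak numbers were 6 in Q7 and 15 in Q111 at 33 °C, and 15 and 17 at 42 °C. In this sub-cluster the lists at 33 °C differed most in number, while the lists at 42 °C were alike. Its regions were the most widely spaced of the large sub-clusters, with a median gap of 6425 bases against 2913 in sub-cluster 3 and 2967 in sub-cluster 4. Its best-ranked peaks were chr13:21291961-21292288 in Q7 at 33 °C (score 383, 90.6th percentile), which was also the highest of the window in that list, and chr13:21371451-21371888 in Q111 at 33 °C (score 510, 86.8th). At 42 °C they were chr13:21259323-21260146 in Q7 (score 853, 88.8th) and chr13:21264105-21264925 in Q111 (score 1321, 95.1st). The 4 lists thus each had a different leading peak there.

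Sub-cluster 2 was a single region of 1076 bases, chr13:21802163-21803238, that stood 383 kb from the sub-cluster before it and 136 kb from the next. It had 2 peaks in Q7 at 33 °C, 1 in Q111 at 33 °C, and 2 in each heated list. Its peak chr13:21802316-21803027 was the highest of the window in Q111 at 33 °C (score 806, 94.3rd percentile, rank 17 of 292). Its best percentile was 87.1 in Q7 at 33 °C, 67.7 in Q7 at 42 °C and 86.4 in Q111 at 42 °C.

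Sub-cluster 3 (chr13:21939681-22142958, 203 kb) held 25 regions, with 10 peaks in each line at 33 °C, 24 in Q7 at 42 °C and 23 in Q111 at 42 °C. It was the only one of the large sub-clusters in which both lines had the same number of peaks at 33 °C. Region chr13:22066151-22067259 carried its highest peak in both lists at 33 °C (60.6th percentile in Q7, 86.5th in Q111). At 42 °C the highest were chr13:21946759-21947394 in Q7 (score 1134, 92.2nd) and chr13:22114120-22114438 in Q111 (score 1963, 98.2nd, rank 40 of 2161).

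Sub-cluster 4 (chr13:23362169-23666459, 304 kb) began 1.22 Mb further on and was the largest, with 34 regions. It held 17 peaks in Q7 and 25 in Q111 at 33 °C, and 35 and 34 at 42 °C. Its highest peaks at 33 °C were chr13:23609417-23610243 in Q7 (score 299, 82.9th percentile), which at 827 bases was also the widest of that list in the window, and chr13:23558800-23559224 in Q111 (score 672, 91.6th). At 42 °C its highest peaks led the whole window in both lines. They were chr13:23665848-23666459 in Q7 (score 1991, 97.1st percentile, rank 179 of 6173), the last region of the sub-cluster, and chr13:23524700-23525180 in Q111 (score 1986, 98.2nd, rank 39 of 2161). Sub-cluster 5, chr13:23789350-23832153, held 2 regions with no peak at 33 °C.

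The regions fell into 6 of the possible classes of lists. All 4 lists had a peak in 28 regions (35.4%), against 135 of the 6498 regions elsewhere (2.08%). A further 22 (27.8%) had a peak in both lines at 42 °C only, against 22.4% elsewhere. In 17 regions (21.5%) only Q7 at 33 °C lacked a peak, against 0.80% elsewhere, and in 1 (1.27%) only Q111 at 33 °C did, against 0.68% elsewhere. Q7 at 42 °C alone had a peak in 5 regions (6.33%), the class that made up 67.3% of the regions elsewhere, and Q111 at 42 °C alone in 6 (7.59%, against 5.56% elsewhere). Every one of the 79 regions had a peak in at least 1 heated list. Elsewhere regions with peaks at 33 °C only were also rare. They numbered 29 of 6498 for Q111 alone, 13 for Q7 alone and 1 for both lines. Most regions elsewhere had no peak at 33 °C, however, and could not fall in these classes. Counted per 33 °C peak, 15 of 225 Q7 peaks elsewhere (6.67%) and 33 of 241 Q111 peaks (13.7%) lacked a 42 °C peak of their line. In the window 0 of 35 and 0 of 51 did, with upper Wilson limits of 9.89% and 7.0%.

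The classes were spread unevenly over the sub-clusters. Of the 17 regions that lacked only Q7 at 33 °C, 8 lay in sub-cluster 1, 1 in sub-cluster 3 and 8 in sub-cluster 4. Of the 22 regions with peaks in both heated lists only, 2 lay in sub-cluster 1, 11 in sub-cluster 3, 8 in sub-cluster 4 and 1 in sub-cluster 5. Regions of all 4 lists numbered 5, 8 and 14 in sub-clusters 1, 3 and 4. These counts describe 1 library per group, and their difference between sub-clusters was not tested.

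Regions with a peak in a single heated list and no other ranked mostly below the middle of that list. The 5 regions of Q7 at 42 °C alone were chr13:21939681-21940106, chr13:22088394-22088621, chr13:23362169-23362494, chr13:23488764-23489250 and chr13:23789350-23789884, at percentiles 49.2, 38.1, 33.8, 37.7 and 31.0. None reached the median of its list. The 6 peaks of Q111 at 42 °C alone ranged from the 7.20th to the 61.5th percentile, with a median of 41.0. Elsewhere, 42 °C peaks without a 42 °C peak of the other line had median percentiles of 37.3 in Q7 and 22.1 in Q111. The low rank was thus not particular to the window. The region without a peak only in Q111 at 33 °C, chr13:21947626-21948157, stood at the 38.7th percentile in Q7 at 33 °C, the 75.5th in Q7 at 42 °C and the 80.3rd in Q111 at 42 °C. It lay 227 bases from chr13:21946759-21947398, which had a peak in both lines at 42 °C only.

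The heated lists held peaks at further positions of the window, and no position listed at 33 °C was missing from the heated list of its line. A peak at 42 °C that shared no base with a peak of the same line at 33 °C is called gained. In Q7 45 of 78 peaks were gained (57.7%, 95% Wilson interval 46.6 to 68.0), beside 96.1% over the whole list. In Q111 29 of 77 were gained (37.7%, 27.7 to 48.8), beside 87.9% over the whole list. In both lines the window's share was below that of the list, that is, more of its heated peaks already had a counterpart at 33 °C. Among the 1000 highest-scoring peaks of each heated list the shares were 7 of 21 in Q7 (33.3%, 17.2 to 54.6), beside 86.6% over those 1000, and 16 of 62 in Q111 (25.8%, 16.6 to 37.9), beside 76.9%. None of the 35 Q7 peaks at 33 °C was without a counterpart at 42 °C (upper Wilson limit 9.89%, beside 5.77% over the whole list), nor any of the 51 Q111 peaks (upper limit 7.0%, beside 11.3%). Wilson intervals cover counting error only, and the depth of the libraries, which sets how many peaks can be called, is unknown.

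The same shares were taken for crowded peaks elsewhere, meaning those whose list held at least 3 other peaks within 20 kb. Of these, 197 of 231 were gained in Q7 (85.3%) and 16 of 55 in Q111 (29.1%). None of the 20 crowded Q7 peaks or the 26 crowded Q111 peaks at 33 °C lacked a counterpart at 42 °C, as in the window. The window's share gained in Q7 was below that of these crowded peaks, and the interval of the window's share in Q111 held theirs.

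The share gained was uneven over the sub-clusters, a difference that was not tested. In sub-cluster 1, 10 of 15 Q7 peaks (66.7%) and 4 of 17 Q111 peaks (23.5%) were gained. Sub-cluster 3 had 14 of 24 in Q7 (58.3%) and 14 of 23 in Q111 (60.9%), and sub-cluster 4 had 19 of 35 (54.3%) and 10 of 34 (29.4%). The lines were thus alike in sub-cluster 3, where they had equal numbers of peaks at 33 °C, and apart in sub-clusters 1 and 4, where Q111 had more. In sub-cluster 2 no peak was gained, and in sub-cluster 5 all 3 were.

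Most gains in Q7 were at positions where Q111 also had a peak. Of the 45, 17 overlapped a Q111 peak at 33 °C, 23 overlapped a Q111 peak at 42 °C only, and 5 overlapped none. Of the 29 gains in Q111, 1 overlapped a Q7 peak at 33 °C, 22 a Q7 peak at 42 °C only, and 6 none. The 17 Q7 gains already listed in unheated Q111 cells are 37.8% (25.1 to 52.4) of the window's gains, against 57 of 5890 gains elsewhere (0.968%) and 8 of 197 among crowded peaks elsewhere (4.06%). In the other direction 1 of 29 (3.45%, 0.611 to 17.2) compares with 45 of 1870 elsewhere (2.41%) and 0 of 16 among crowded peaks. Gains with no Q111 peak made up 11.1% in Q7 against 74.3% elsewhere, and gains with no Q7 peak 20.7% in Q111 against 19.3%. The number of peaks listed at 33 °C (35 and 51) moves with this count, and its part in it was not tested. Counted instead per Q111 peak at 33 °C, 18 of 51 in the window (35.3%) had no Q7 peak at 33 °C. Elsewhere it was 97 of 241 (40.2%), so by that count the window was near the background. For Q7 peaks at 33 °C without a Q111 peak it was 1 of 35 (2.86%), against 75 of 225 elsewhere (33.3%).

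Gained peaks reached high ranks. The highest in Q7 was chr13:23665848-23666459 (score 1991, 97.1st percentile). The next were chr13:21946759-21947394 (score 1134, 92.2nd), chr13:23613504-23614031 (score 1082, 91.7th), chr13:21261442-21262335 (score 769, 87.6th) and chr13:23555205-23555605 (score 724, 86.8th). Of these, the peaks at chr13:23613504 and chr13:21261442 were listed in Q111 at 33 °C. In Q111 the highest were chr13:23518237-23519145 (score 953, 91.0th percentile), chr13:23665938-23666406 (score 917, 90.5th) and chr13:22085753-22086285 (score 630, 83.1st), followed by chr13:21946789-21947398 (score 615, 82.6th) and chr13:23598115-23598650 (score 614, 82.5th). The regions at chr13:23665848 and chr13:21946759 were among the 5 highest gains of both lines. The median percentile of gained peaks was 67.8 in Q7 and 58.7 in Q111, against 82.5 and 84.8 for the peaks with a counterpart at 33 °C. The same order was found elsewhere, with 48.1 and 44.4 for gained peaks against 87.8 and 83.2.

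The share gained was therefore also read within 4 score bands of each 42 °C list, each holding 25% of its peaks. In the highest band, 18 of 40 Q7 window peaks (45.0%) were gained against 89.6% of the peaks elsewhere, and 7 of 49 Q111 peaks (14.3%) against 72.5%. Crowded peaks elsewhere stood at 72.5% (66 of 91) in Q7 and 16.7% (5 of 30) in Q111. In the band below, 16 of 27 Q7 window peaks (59.3%) and 12 of 17 in Q111 (70.6%) were gained, against 97.8% and 89.1%. Crowded peaks elsewhere stood at 84.6% (44 of 52) in Q7 and 27.8% (5 of 18) in Q111 in that band. In Q111 the window was thus near the crowded peaks in the highest band and above them in the band below. In the 2 lower bands the window held few peaks, and all but 1 of them were gained in the 2 lines together. Elsewhere 99.5% of the peaks in each of these bands were gained in Q7. In Q111 it was 98.7% in the lowest band and 97.2% in the next, so the window was near the background there.

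**Figure D2:**
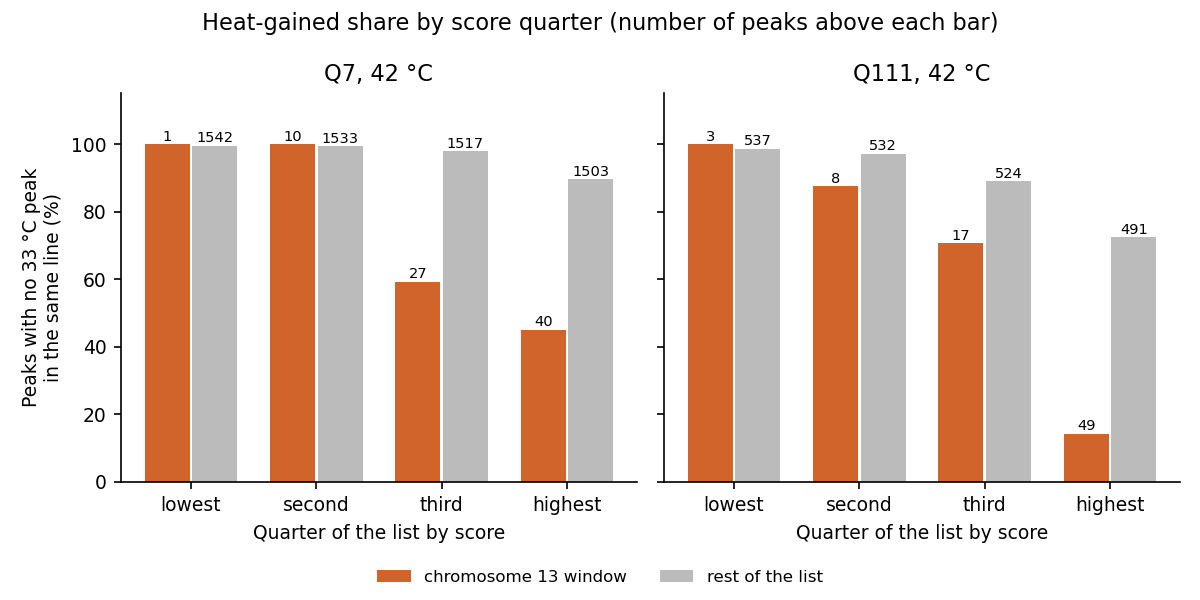
Share of 42 °C peaks gained on heating (y axis, percent) by score band of 25% of the list, lowest to highest (x axis), in the window and elsewhere, for Q7 and Q111. In the highest band 45.0% of the window's Q7 peaks and 14.3% of its Q111 peaks were gained.

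Between the lines at 42 °C, 5 of 78 Q7 peaks of the window (6.41%, 2.77 to 14.1) shared no base with a Q111 peak, beside 71.3% over the whole list. In the other direction it was 6 of 77 (7.79%, 3.62 to 16.0), beside 17.6%. Among crowded peaks elsewhere these shares were 125 of 231 (54.1%) and 2 of 55 (3.64%). Both depend on the longer Q7 list. With that list trimmed to the length of the Q111 list, 25 of the 77 Q111 peaks of the window (32.5%, 23.1 to 43.5) shared no base with a Q7 peak, beside 36.0% over the whole list, so the window's share was near the background. In the other direction it was 0 of 53 (upper limit 6.76%), beside 36.5%. At 33 °C, 1 of 35 Q7 peaks (2.86%) had no Q111 counterpart, beside 29.2% over the whole list, and 18 of 51 Q111 peaks (35.3%, 23.6 to 49.0) had no Q7 counterpart, beside 39.4%. The window's Q7 positions at 33 °C were almost a subset of the Q111 positions, as were those of crowded peaks elsewhere, of which 0 of 20 in Q7 lacked a Q111 peak and 4 of 26 in Q111 (15.4%) lacked a Q7 peak.

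The window's peaks ranked in the middle of the 33 °C lists and high in the 42 °C lists. The median percentile was 41.0 (95% interval of the median over peaks 32.5 to 57.3, range 1.73 to 90.6) in Q7 at 33 °C and 58.7 (48.5 to 65.6, range 6.34 to 94.3) in Q111 at 33 °C. It was 76.0 (69.9 to 82.1, range 18.3 to 97.1) in Q7 at 42 °C and 80.9 (76.5 to 83.5, range 4.23 to 98.2) in Q111 at 42 °C. The lists differ in length, so the higher percentiles after heating do not show a change. At 42 °C, 67 of the 78 Q7 peaks (85.9%) and 66 of the 77 Q111 peaks (85.7%) ranked at or above the median of their list. At 33 °C, 15 of 35 and 32 of 51 did. Crowded peaks elsewhere also ranked above the middle, with median percentiles of 64.8 in Q7 and 76.9 in Q111 at 42 °C, and 64.1 and 65.2 at 33 °C. In Q111 at 42 °C, 48 of 55 crowded peaks (87.3%) reached the median of the list, so the high rank there was not particular to the window. The lowest-ranked were chr13:23595746-23595989 in Q7 at 33 °C (1.73rd percentile) and chr13:23831775-23832153 in Q111 at 42 °C (4.23rd).

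**Figure D3:**
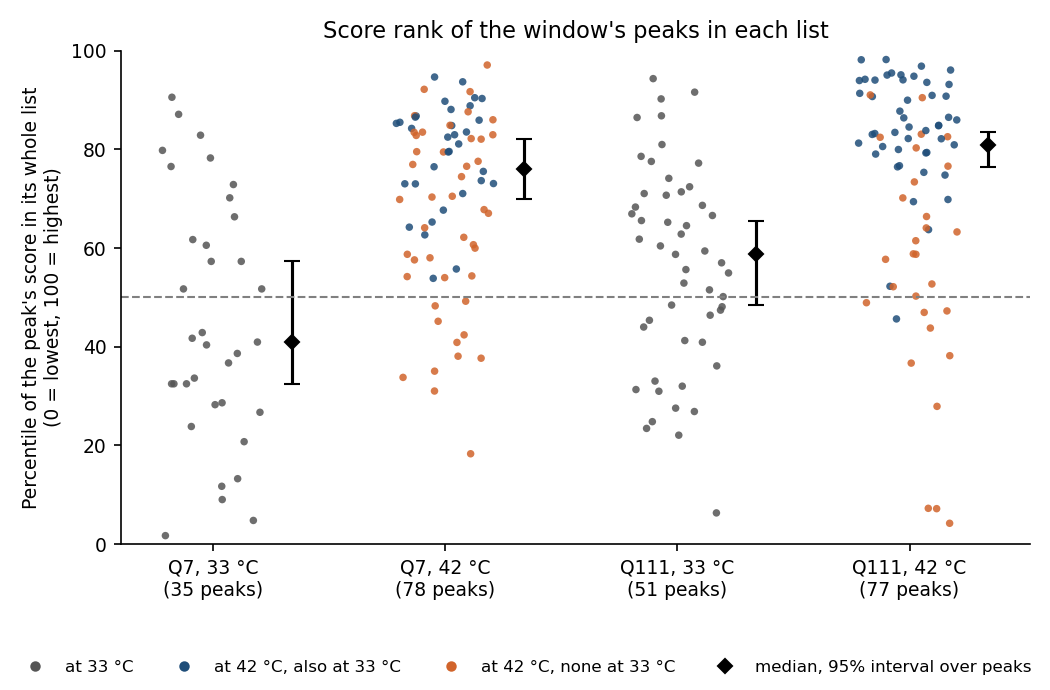
Percentile of each window peak within its own list (y axis, 0 lowest to 100 highest) in the 4 lists, 1 point per peak. The medians are 41.0 in Q7 and 58.7 in Q111 at 33 °C, and 76.0 and 80.9 at 42 °C.

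Regions with a peak in all 4 lists ranked highest at 42 °C. Their median percentile was 82.7 (73.1 to 85.9) in Q7 and 86.4 (82.2 to 91.4) in Q111. Regions lacking only Q7 at 33 °C followed with 75.5 (62.2 to 82.1) and 83.8 (76.5 to 94.2). Regions with peaks in both lines at 42 °C only had 65.6 (57.6 to 83.5) and 61.1 (48.9 to 76.6). The intervals of the first 2 classes overlap in both lines. The interval of this last class lies below that of the regions of all 4 lists in Q111 only.

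The lines differed more plainly when only shared sites were ranked. At 42 °C, 1737 sites had exactly 1 Q7 peak overlapping exactly 1 Q111 peak, 66 of them in the window, and ranking these alone gives both lines the same number of sites. This ranking was added after the data had been seen. On this scale the window's median percentile was 38.2 (28.7 to 50.3) in Q7 and 78.4 (72.5 to 80.9) in Q111. The percentile was higher in Q111 at 63 of the 66 sites and lower at 3. Among the 1671 shared sites elsewhere it was higher in Q111 at 800, with medians of 50.5 and 48.7. The window's sites thus stood below the middle of the shared sites in Q7 and in their upper part in Q111, as a relative position within each library and not as an amount of HSF1. Shared sites are an uneven selection. At 42 °C, 93.6% of the window's Q7 peaks had a Q111 peak, against 27.9% elsewhere. For Q111 peaks it was 92.2% against 82.1%. Shared sites elsewhere had median percentiles of 82.9 in the whole Q7 list and 55.8 in that of Q111. The part of this selection in the ranks was not tested.

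The difference between the lines among shared sites appeared in each large sub-cluster. Medians in Q7 and Q111 were 34.1 and 76.9 over 15 sites of sub-cluster 1, 34.0 and 71.8 over 20 sites of sub-cluster 3, and 50.5 and 80.2 over 28 sites of sub-cluster 4. The percentile was higher in Q111 at all 15, all 20 and 26 of the 28. Sites with a peak at 33 °C in either line had medians of 43.5 and 81.3 (44 of 44 higher in Q111), and those without one had 23.5 and 54.4 (19 of 22 higher). Elsewhere, shared sites with a peak at 33 °C in either line also ranked higher in Q111, with medians of 67.4 and 82.6 and 170 of 226 higher. Crowded sites elsewhere had 52.1 and 65.3, with 56 of 97 higher. A shift of this direction was therefore also found outside the window, and by its medians it was larger inside it.

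**Figure D4:**
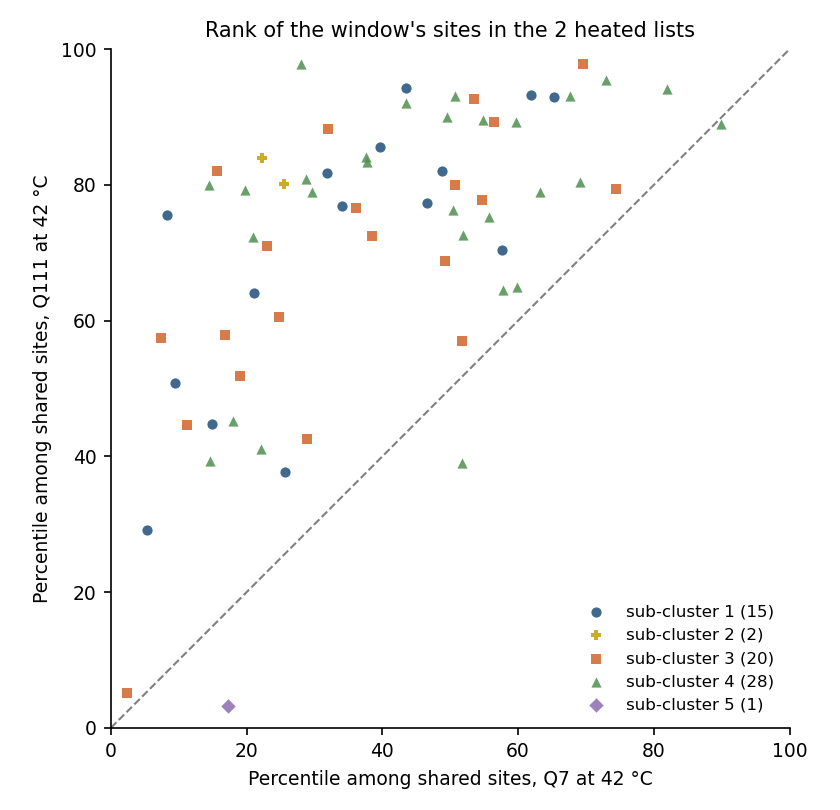
Percentile of the window's 66 shared sites among the 1737 shared sites at 42 °C, in Q7 (x axis) and Q111 (y axis), with 1 point per site marked by sub-cluster and equal percentiles on the dashed line. Of the 66 sites, 63 lie above the line.

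The largest difference was at region chr13:23524498-23525317 of sub-cluster 4. It had no peak in Q7 at 33 °C, a score of 395 in Q111 at 33 °C (77.6th percentile of the list), 314 in Q7 at 42 °C (69.9th) and 1986 in Q111 at 42 °C (98.2nd). Among shared sites it stood at the 28.0th percentile in Q7 and the 97.9th in Q111. It was thus near the top of only the heated Q111 list. The opposite order appeared at 3 sites, with Q7 peaks at chr13:23831778-23832039 (17.3 in Q7, 3.25 in Q111), chr13:23376990-23377881 (51.7 and 39.1) and chr13:23665848-23666459 (89.9 and 88.9). The second of these, near the start of sub-cluster 4, was chosen for mention after its values were seen. At 33 °C, 28 of 161 shared sites were in the window, with medians of 30.4 (20.8 to 49.4) in Q7 and 46.3 (34.5 to 58.7) in Q111, whose intervals overlap.

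Peak widths told the 33 °C lists apart more than the 42 °C lists. The median width in the window was 377 bases (329 to 419) in Q7 and 479 (452 to 522) in Q111 at 33 °C, and 502.5 (458 to 535) and 484 (449 to 507) at 42 °C. The respective medians elsewhere were 434, 563, 495 and 441. By these medians the window's peaks were narrower than all the others at 33 °C and no narrower at 42 °C. Crowded peaks elsewhere had medians of 412.5 bases (370 to 572) in Q7 and 596.5 (508 to 795) in Q111 at 33 °C. At 42 °C their medians were 552 (526 to 588) and 536 (486 to 619). Against crowded peaks the window's median was lower in every list, at 42 °C too, although the intervals overlap. The contrast between temperatures thus depends on the comparison chosen. The widest peaks of the window at 33 °C were chr13:23609417-23610243 (827 bases) in Q7 and chr13:23390351-23391308 (958 bases) in Q111. At 42 °C they were chr13:22066151-22067232 (1082 bases) in Q7 and chr13:22031930-22033130 (1201 bases) in Q111.

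Paired widths were taken where exactly 1 peak of each list overlapped. From 33 to 42 °C the median difference was 121 bases (50 to 199) over 29 pairs in Q7, with 24 wider and 5 narrower after heating. In Q111 it was -42 bases (-90 to 21) over 40 pairs, with 16 wider and 24 narrower. Pairs elsewhere had medians of 198.5 bases in Q7 and -21.5 in Q111, so the same order of the lines was found outside the window. Of the 28 pairs at 33 °C, 26 had the wider peak in Q111, and the median difference, Q111 minus Q7, was 97.5 bases (46 to 163). Elsewhere 109 of 133 pairs at 33 °C had the wider peak in Q111, with a median of 136 bases (96 to 153). Of the 66 pairs at 42 °C, 26 had it in Q111, with a median of -26.5 bases (-61 to 17) in the window against -145 elsewhere. The centres of paired peaks lay close, with a median distance of 37.5 bases between temperatures in Q7, 34.8 in Q111, and 50.3 between the lines at 42 °C. Peak width depends on the caller and on depth, whose part in these differences was not tested.

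**Figure D5:**
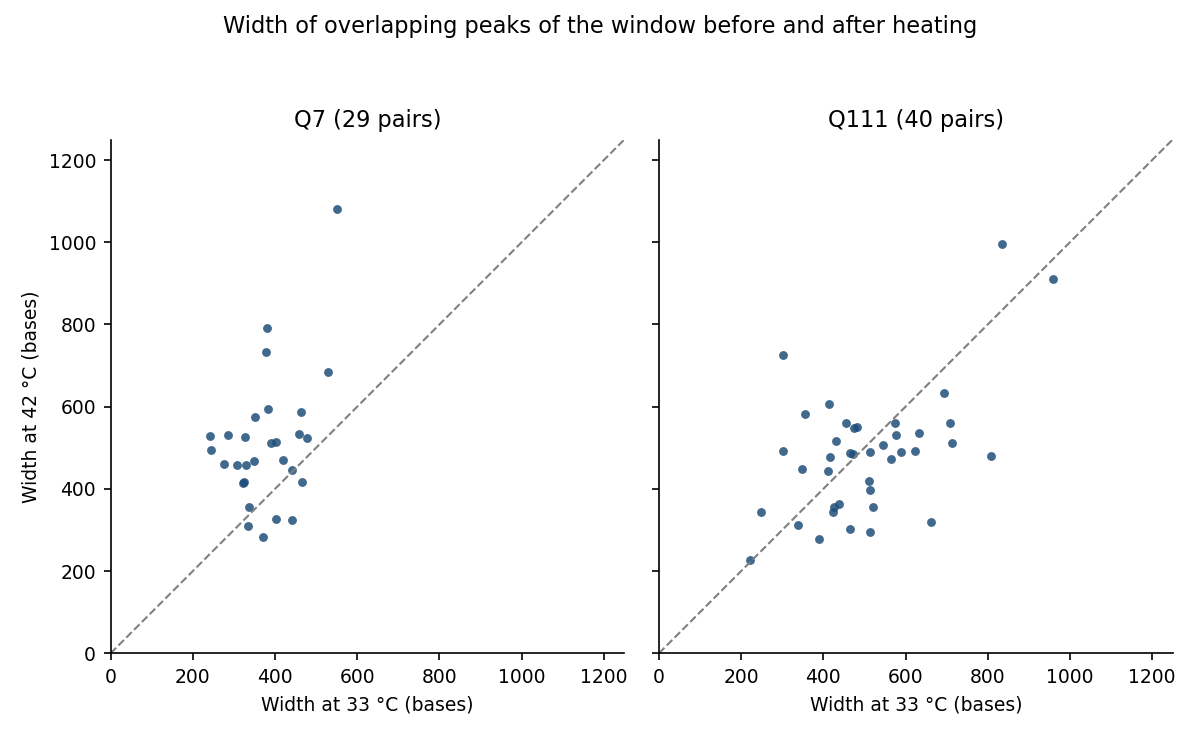
Width in bases of overlapping window peaks at 33 °C (x axis) and 42 °C (y axis) in Q7 (29 pairs) and Q111 (40 pairs), with equal widths on the dashed line. In Q7, 24 of 29 pairs lie above the line, and in Q111, 16 of 40.

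Peaks of the window also lay close to others of their own list. A neighbour within 1 kb was found for 51.4% of the peaks in Q7 and 47.1% in Q111 at 33 °C, and for 41.0% and 37.7% at 42 °C. The respective shares elsewhere were 18.7%, 17.0%, 6.69% and 6.33%. Since the window was chosen for its crowding, these shares describe it and support nothing. Some regions held 2 peaks of 1 list, numbering 6 in each list at 33 °C, 5 in Q7 at 42 °C and 3 in Q111 at 42 °C. A widest region of 1517 bases, chr13:23608808-23610324, held 2 peaks in every list.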

How the data were processed

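HSF1 ChIP-seq peak lists of 4 libraries (Q7 and Q111 cells at 33 °C and after 6 hours at 42 °C, 1 library each) were used. Per the submitters' processing notes, MACS 1.4.0rc2 and build mm9 were used. The sources used here name no aligner, background library, filter or depth. Each list gives a start and end in bases and a score per peak, which the authors deposited without a header. The score was taken as -10 times log10 of the p-value, as is usual for this MACS series, which is an inference. A shorter or shallower list affects gains, overlaps and percentiles. Coordinates are counted from 1.

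Window members start on chromosome 13 from 21 to under 24 Mb. Peaks sharing at least 1 base were merged into regions, and regions up to 100 kb apart were chained into sub-clusters. Scores were compared only as percentiles within a list. Shares carry 95% Wilson intervals and medians 95% binomial order-statistic intervals over peaks, which are not replicates. With 1 library per group no test was made. Scripts ran in Python 3.11.15 with pandas 2.3.3 and numpy 2.4.6. Intervals came from statsmodels 0.14.6 and scipy 1.17.1, figures from matplotlib 3.10.9. The scripts were tested on simulated data. The gene table and promoters are RefSeq, GRCm38.p6. Of the 56 histone genes, 5 had no promoter in the table.

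The members and lists were chosen with earlier results of these data known. Peaks named are the ends and highest peaks of sub-clusters, the 5 highest and 5 lowest and 3 widest of each list (not all are printed), regions of classes with 5 or fewer, the 5 highest gains of each line, and the peaks at the window's edges. Other regions were named after their values were seen. Alternatives were a minimum score of 100, peaks up to 500 bases apart counted as shared, an overlap of 50% of the shorter peak, lists trimmed to their highest peaks, other windows, other gaps, and ranking among shared sites, which was added after seeing the data.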

Additional observations from a re-analysis of the deposited data

Results flagged for a closer look

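The median paired width difference of the window's overlapping peaks, 42 °C minus 33 °C, was 121 bases (50 to 199) in Q7 and -42 bases (-90 to 21) in Q111. The signs are opposite, but the Q111 interval holds 0, and pairs elsewhere had the same signs (198.5 and -21.5 bases). The median width of all peaks of sub-cluster 3 differed between the temperatures by 153.5 bases in Q7 and -60.5 bases in Q111. By the same unpaired measure the sign was positive in both lines over the whole window (125.5 and 5 bases), in sub-cluster 1 (161.5 and 37) and in sub-cluster 4 (88 and 1.5). Both items were picked out for their opposite signs. With 1 library per group the difference between the lines was not tested.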

How the results depend on the processing

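No paired analysis was possible because each group has 1 library. Of 81 recomputed values over 23 results, 69 stayed within the interval or 1.5 times of the reported value and 12 moved further. Among these, the median percentile in Q7 at 42 °C crossed the middle of the scale, from 76.0 in the whole list to 38.2 among shared sites. The median percentile in Q111 at 33 °C crossed it too, from 58.7 to 46.3. None moved with a minimum score of 100, an overlap of 50% of the shorter peak, a distance of 500 bases or a window of 20 to 25 Mb. With a window of 21 to 23 Mb the peak numbers were 18 in Q7 and 26 in Q111 at 33 °C, and 41 and 42 at 42 °C, since sub-clusters 4 and 5 lie beyond 23 Mb. With only the 1000 highest peaks of each 42 °C list, 33.3% of the window's peaks were gained in Q7 and 25.8% in Q111, beside 86.6% and 76.9% of all those peaks. With the Q7 list trimmed to the length of the Q111 list, 0% of its window peaks lacked a Q111 peak at 42 °C, and 32.5% of the Q111 peaks lacked a Q7 peak, beside 36.5% and 36.0% over the whole lists. A gap of 200 kb gave 3 sub-clusters. Ranked among shared sites, an alternative added after seeing the data, the median percentiles at 33 °C were 30.4 in Q7 and 46.3 in Q111. Unknown depth limits the gains, the overlaps and the number of peaks.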
